A study of Mus musculus with 35 samples.

Results

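The proteasome is the main protease of the cytosol and nucleus, and the genes described here are those that encode its subunits. Members were the protein-coding genes in the count table whose symbol is Psma, Psmb, Psmc, Psmd or Psme followed by a number. Of 55421 genes in the table, 43 met this rule. The proteins encoded by Psmd5, Psmd9 and Psmd10 bear a subunit name but are chaperones of base assembly. The names Psmb5-ps, Psmb6-ps, Psmb6-ps2, Psmb7-ps2, Psmc3ip and Psme2b begin alike but fall outside the rule.

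RNA was taken from the interscapular brown adipose tissue (iBAT) of 35 male C57BL/6J mice, aged 9 to 10 weeks, with 5 mice in each of 7 groups. Controls were kept at the room temperature of the colony, 24 °C, and the others were exposed to 6 °C, for 6 hours or for a whole number of days from 1 to 5. No group carried a transgene or received a drug. Cold-exposed mice lived individually in cages without nesting material, and the effects of housing and temperature cannot be told apart. Each library came from the iBAT of its own mouse, so the spread between replicates is the spread between animals. The library kit reads the 3′ end of polyadenylated RNA, so a level is given as counts per 1000000 counts of the library (CPM), scaled by edgeR's TMM factors, and is compared between mice but not between genes. Of 8 markers of brown adipocytes, 2, 2, 2, 2, 2 and 3 rose from 6 hours to 5 days, among them Ucp1 and Dio2 each time, and 1, 2, 1, 2, 3 and 2 fell, among them Adipoq each time. Over all genes tested, 16.4 to 21.5% were higher and 14.7 to 21% lower at these durations. The summed level of the 8 markers, Ucp1 and Dio2 included, was 12100 to 15600 CPM in controls and 18300 to 24500 CPM after 6 hours. On days 1 to 5 it was 17300 to 22200, 14900 to 20200, 13100 to 17600, 14400 to 18200 and 15900 to 19600 CPM. It thus overlapped with controls after 2, 3 and 4 days.

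A proteasome is built from a barrel-shaped core particle, 20S, and regulatory caps. The core stacks rings of alpha subunits (Psma genes), which form the gate, around rings of beta subunits (Psmb genes), of which Psmb5, Psmb6 and Psmb7 encode the chymotrypsin-like, caspase-like and trypsin-like proteases. Interferon-γ induces Psmb8, Psmb9 and Psmb10, which replace those proteases in newly assembled particles to make the immunoproteasome, the form that is abundant in immune cells and favors peptides for antigen presentation. The 19S cap recognizes ubiquitin chains, removes them and unfolds the substrate. Its base holds the ATPases (Psmc genes) and the scaffold and ubiquitin receptor subunits Psmd1, Psmd2 and Psmd4, and its lid holds the deubiquitinase Psmd14 and its supporting subunits. The 11S activators (Psme1 and Psme2 together, Psme3 alone) and PA200 (Psme4) open the gate without ATP. When proteasome capacity falls short, the transcription factor encoded by Nfe2l1 is released from the endoplasmic reticulum and induces subunit genes through antioxidant response elements. In brown fat this factor is known for sustaining proteolysis during thermogenesis.

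The libraries held 3846016 to 6047247 counts, of which 33.6 to 46.2% came from mitochondrial genes and 0.26 to 0.347% from the members. A count was worth 0.285 CPM in the smallest library and 0.151 CPM in the largest. Of the 43 members, 41 passed the filter on low counts in the comparisons with controls, with 10 counts (Psmb9) to 1593 counts (Psmd4) per mouse. Psma8, the testis form of an alpha subunit, had 9 counts over all 35 mice, in 6 of them, and Psmb11, the thymic catalytic subunit, had 0 counts, so neither was tested. At 0 counts, a level of up to 3 counts per library (0.454 to 0.856 CPM) is allowed by counting error alone. All 6 comparisons with room temperature share the same 5 control mice. Of these controls, replicate 5 stood apart in immune genes, with 16.2 CPM of the leukocyte gene Ptprc against 5.02 to 7.5 CPM in the others, and counts of members and of immune and interferon genes are given with and without it. TMM factors were 1.09 to 1.21 in controls and 0.875 to 1.21 over all libraries, so scaling matters here. Without them, scaled by library size only, the median log2 fold change over all genes tested was −0.21 after 6 hours, and −0.24, −0.24, −0.15, −0.16 and −0.25 on days 1 to 5. With TMM it was between −0.03 and −0.01 in these comparisons.

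The question of each comparison was which subunit genes differ in iBAT after a given time in the cold. After 6 hours, 24 of the 41 tested members stood above the controls and 5 below them (edgeR's quasi-likelihood test at an adjusted p below 0.05, by Benjamini-Hochberg over all genes tested), where 21.5% of the 10593 genes tested were higher and 21% lower. The 24 are 58.5% of the members. The median log2 fold change was 0.41 over the members and −0.03 over all genes. After 1 day, 18 members were higher and 4 lower, against 18.9% and 17.8% of all genes, and the members' median was 0.21. After 2 days, 11 members were higher and 3 lower, against 16.4% and 14.7% of all genes, with a median of 0.12.

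From 3 to 5 days the number of higher members was 11, 12 and 17. After 3 days the 11 higher members (26.8%) stood against 18.3% of all genes and the 0 lower members against 15.5%. The count of 0 lower members by edgeR was also 0 at an unadjusted p below 0.05 and by DESeq2, and the median was 0.13. After 4 days 12 members were higher and 2 lower, against 19.4% and 18.6% of all genes, with a median of 0.17. After 5 days 17 members (41.5%) were higher and 1 was lower, against 20.2% and 18.6% of all genes, with a median of 0.26. Groups did not overlap in any mouse for 22 members after 6 hours, and for 19, 10, 12, 11 and 14 members on days 1 to 5, where 28.5% of all genes tested did not overlap after 6 hours and 25%, 20.2%, 21.8%, 25.1% and 24.9% on days 1 to 5. Scaled by library size only, 15 members were higher and 5 lower after 6 hours, and 8 and 5, 2 and 10, 6 and 4, 8 and 4, and 8 and 4 on days 1 to 5. Of all genes, 12.7% were higher and 32.1% lower after 6 hours under that scaling, and 10.7% and 30.2%, 8.76% and 26.1%, 12.4% and 22.4%, 13% and 24.2%, and 11.1% and 31.2% on days 1 to 5. Without room temperature replicate 5, the counts were 22 higher and 4 lower, 16 and 4, 6 and 0, 9 and 0, 10 and 1, and 16 and 0, in order of duration. In these fits 10768, 10824, 10796, 11040, 11257 and 10907 genes were tested. Of them, 2074, 1739, 1489, 1763, 1923 and 2017 were higher and 1986, 1668, 1305, 1409, 1799 and 1741 lower. After 2 days the share of higher members was then close to that of all genes. Without 2 days replicate 3, 7 members were higher and 0 lower after 2 days, and without 3 days replicate 4, 1 was lower after 3 days. In a test of any difference among the 7 groups, 35 of 41 members passed, where 60.4% of the 12077 genes tested did. The other 6 were Psma3, Psma5, Psmb1, Psmb10, Psmd5 and Psmd8.

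**Figure D1:**
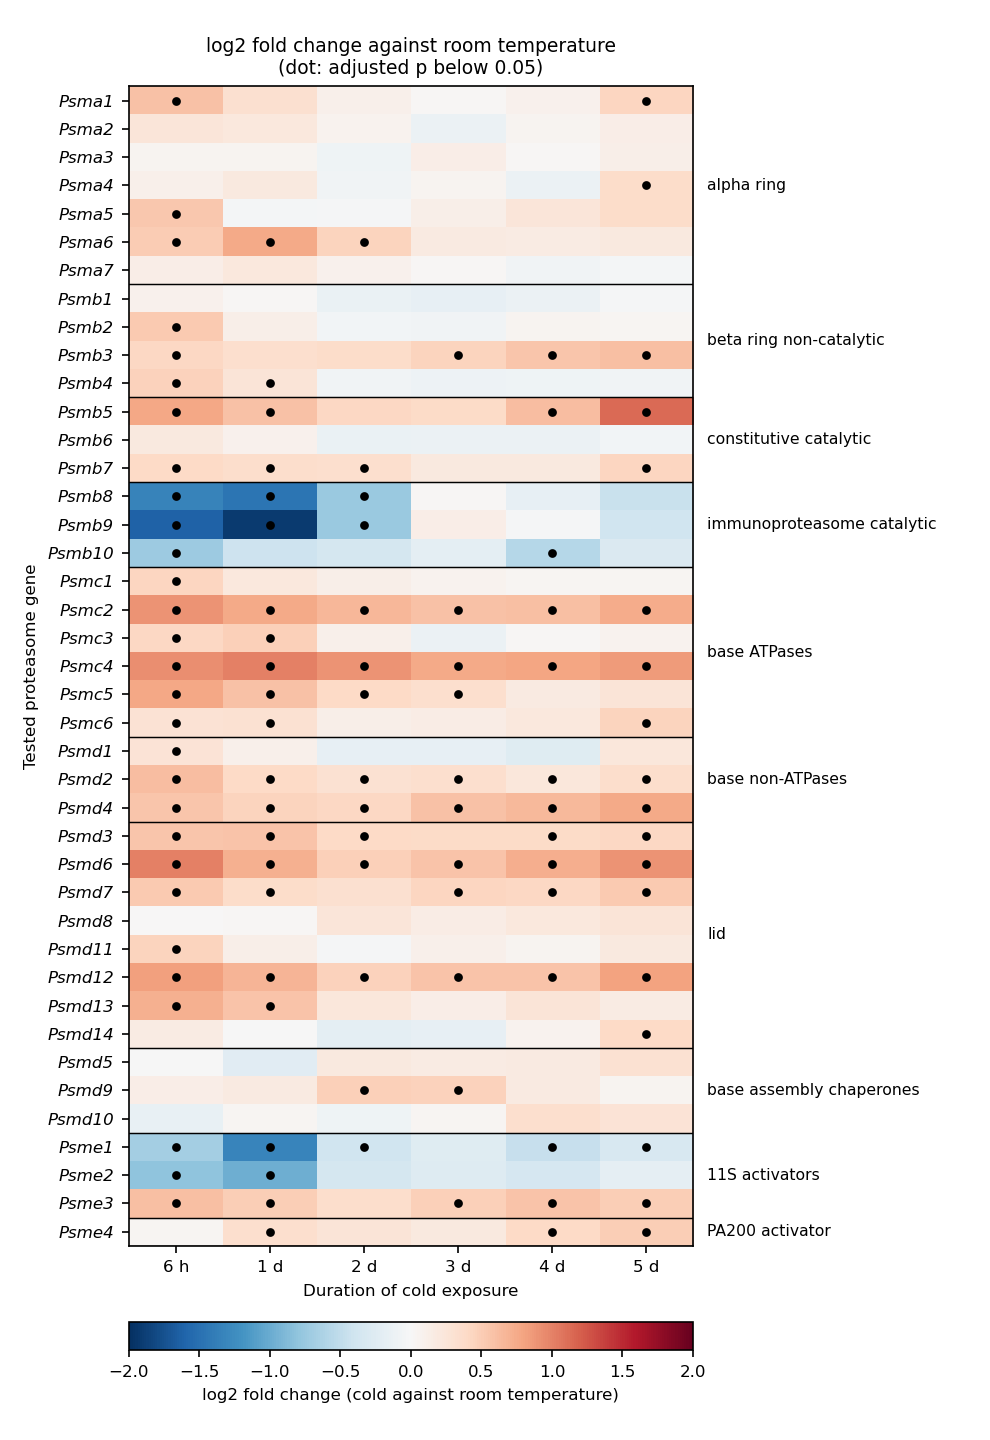
Heatmap of the log2 fold change against room temperature (color scale) of the 41 tested members (rows, grouped by role) at 6 durations of cold exposure (columns), with a mark where the adjusted p was below 0.05. Psmc2, Psmc4, Psmd2, Psmd4, Psmd6 and Psmd12 carry a mark for higher at all 6 durations, and the marks for lower fall on Psmb8, Psmb9, Psmb10, Psme1 and Psme2.

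Promoter letters are shown for members the results turn on, as windows of 30 bases around matches to sites of transcription factors known for proteasome genes. Promoters of 36 members were found in a RefSeq table of GRCm38.p6 that spans 250 bases before to 50 after each gene start, and Psma8, Psmb1, Psmb2, Psmb7, Psmc3, Psmd3 and Psmd7 had no entry. The antioxidant response element core TGACNNNGC, the site of Nfe2l1 and Nfe2l2, was searched on both strands, and capitals mark it here in Psmb5 and in 2 subunits of the 19S cap.
Psmb5 (chr14:54618023-54618052, minus strand, first base of the match at −47 from the gene start): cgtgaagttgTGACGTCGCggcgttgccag
Psmc6 (chr14:45329587-45329616, plus strand, −227, matched on the opposite strand): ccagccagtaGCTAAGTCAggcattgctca
Psmd12 (chr11:107479278-107479307, plus strand, −247, matched on the opposite strand): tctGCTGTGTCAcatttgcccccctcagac

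The core stood in 6 of the 36 member promoters (16.7%) and in 14.0% of all 27025 promoters in the table, and in 3 of the 19 members that were higher after 6 hours (15.8%). It was in none of the 5 lower ones and in 3 of the 11 tested members with no call (27.3%), namely Psmb6, Psmd9 and Psme4. The letters CCAAT, the site of NF-Y, stood in 14 member promoters (38.9%) and in 41.1% of all. Letters like the interferon-stimulated response element, GAAANNGAAA, are shown in capitals for Psme1, which fell in the cold, and for Psmb3 and Psmd4, which rose.
Psme1 (chr14:55578493-55578522, plus strand, 9 after the gene start, matched on the opposite strand): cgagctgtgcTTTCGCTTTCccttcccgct
Psmb3 (chr11:97703261-97703290, plus strand, −163, matched on the opposite strand): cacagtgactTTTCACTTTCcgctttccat
Psmd4 (chr3:95042675-95042704, minus strand, −80, matched on the opposite strand): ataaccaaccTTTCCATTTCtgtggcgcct

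The interferon-like letters, searched on both strands, stood in 4 member promoters (11.1%) and 3.99% of all. They were present in 1 of the 5 members that were lower after 6 hours (Psme1) and in 2 of the 19 higher ones. They also stood in 1 of the 11 tested members with no call (Psmd9). A match describes the letters in this short window only.

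The 19S cap was the largest group among the higher members. Of its 17 subunits, 15 were higher after 6 hours and 12, 8, 8, 8 and 10 on days 1 to 5, and 0 were lower at any duration by edgeR or DESeq2. At an unadjusted p below 0.05, 1 subunit (Psmd1, after 4 days) was lower. Their median log2 fold change was 0.55, 0.44, 0.30, 0.33, 0.23 and 0.40 in that order. Scaled by library size only, the medians were 0.36, 0.22, 0.08, 0.18, 0.10 and 0.17, with 10, 7, 2, 5, 5 and 5 subunits higher and 0, 0, 2, 1, 1 and 0 lower. Without room temperature replicate 5, 14, 12, 5, 8, 7 and 9 were higher.

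All 6 ATPases of the base, which unfold substrates and thread them into the core, were higher after 6 hours, and 5, 3, 3, 2 and 3 of them were higher after 1, 2, 3, 4 and 5 days. Psmc4 was at 37.9, 28.4, 27.7, 31.6 and 30.7 CPM in the controls and at 65.4, 63.9, 44.2, 64.5 and 66.5 CPM after 6 hours. All 5 cold-exposed mice lay above all controls, replicate 3 nearest to them. Its log2 fold change was 0.93 ± 0.13 (SE, n = 5 mice per group, edgeR adjusted p = 1.63e-05). It stayed higher after 5 days, at 55.1, 56.5, 59.9, 66.6 and 48.5 CPM (0.85 ± 0.12, adjusted p = 2.4e-05). Among the other durations the log2 fold change of Psmc4 was 0.75 to 1.00.

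The other ATPases differed from Psmc4 in how long the difference lasted, and they are named here after their values were seen. Psmc2 was higher at all 6 durations, with log2 fold changes from 0.59 after 3 days to 0.91 after 6 hours. Psmc5 was 0.77, 0.59, 0.41 and 0.33 higher on the log2 scale after 6 hours, 1 day, 2 days and 3 days, and its values of 0.18 and 0.26 after 4 and 5 days did not pass (edgeR adjusted p = 0.143 and 0.0572). Psmc1 rose after 6 hours only (0.43), and Psmc3 after 6 hours and 1 day (0.41 and 0.48). Psmc6 rose after 6 hours (0.29), 1 day (0.30) and 5 days (0.44). Psmc3 shares exon sequence on the opposite strand with Slc39a13, and because the strand setting of the counting is not given in the sources used here, its counts are uncertain.

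Among the scaffold and receptor subunits of the base, Psmd2 and Psmd4 were higher at all durations. Psmd2, a scaffold that docks ubiquitin shuttles, was at 89.8, 96.1, 90.2, 99.6 and 92.0 CPM in controls and at 155, 145, 151, 144 and 136 CPM after 6 hours, with no overlap. The log2 fold change was 0.61 ± 0.085 (edgeR adjusted p = 1.66e-05). It was between 0.23 and 0.39 at the later durations, and the call after 4 days (adjusted p = 0.0374) was lost when any of 7 mice was left out, with values of 0.21 to 0.26. The call after 2 days was lost without any of 4 mice (0.25 to 0.34).

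Psmd4, a ubiquitin receptor, was at 169, 161, 178, 152 and 155 CPM in controls. After 5 days it was at 321, 257, 314, 242 and 263 CPM, above every control. Its log2 fold change was 0.55, 0.44, 0.42, 0.58, 0.65 and 0.75 from 6 hours to 5 days (edgeR adjusted p = 0.000307, 0.00457, 0.00595, 0.000138, 4.72e-05 and 1.82e-05), so the value at 5 days was the highest of the 6. Psmd1, the other scaffold, was higher after 6 hours (0.27, adjusted p = 0.0459) and passed at no later duration. It shares exon sequence with Htr2b on the opposite strand and Gm21972 on the same strand.

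In the lid, 6 of 8 subunits were higher after 6 hours, followed by 5, 3, 3, 4 and 5. Psmd6 was at 46.5, 44.6, 52.0, 35.9 and 31.3 CPM in controls, at 81.3, 97.8, 87.2, 91.1 and 74.3 CPM after 6 hours, and at 77.6, 81.2, 87.0, 80.7 and 69.4 CPM after 5 days. Each of these 10 cold-exposed mice was above every control. The log2 fold change was 1.01 ± 0.13 after 6 hours (edgeR adjusted p = 5.65e-06) and 0.89 ± 0.13 after 5 days (adjusted p = 2.28e-05), with 0.71, 0.48, 0.57 and 0.73 at the durations between.

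Psmd12, a scaffold of the lid, was at 32.8, 33.7, 37.6, 32.1 and 27.1 CPM in controls and at 52.9, 61.6, 62.1, 58.3 and 58.1 CPM after 6 hours. Its log2 fold change was 0.82 ± 0.10 (edgeR adjusted p = 5.69e-06), and it was higher at every other duration too (0.46 to 0.80). Psmd14, the deubiquitinase, was higher after 5 days alone (0.40, adjusted p = 0.0228). Psmd8 passed at no duration (0.02 to 0.26). Psmd13, which shares exon sequence with Sirt3 on the opposite strand, was higher after 6 hours and 1 day (0.72 and 0.58).

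**Figure D2:**
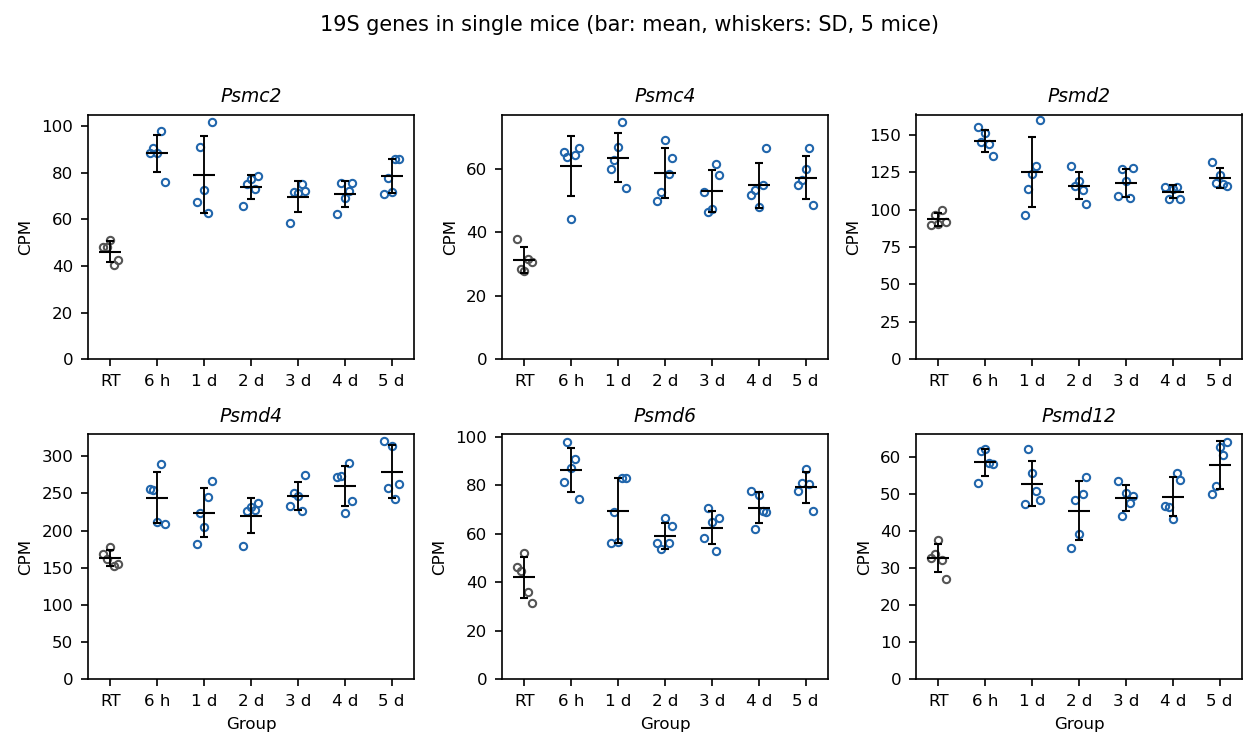
CPM (y axis) of members of the 19S cap in each of the 35 mice (points) by group (x axis), with the mean and SD of each group of 5 mice. For Psmc4 and Psmd6 every mouse after 6 hours and after 5 days lies above all 5 controls.

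The constitutive core of alpha and beta subunits had most of its calls after 6 hours and 5 days. Of its 14 subunits, 8 were higher after 6 hours and 4, 2, 1, 2 and 5 on days 1 to 5, and 0 were lower by edgeR, by DESeq2 or at an unadjusted p below 0.05. The share of higher subunits was 57.1, 28.6, 14.3, 7.14, 14.3 and 35.7% from 6 hours to 5 days. Of all genes tested, 21.5, 18.9, 16.4, 18.3, 19.4 and 20.2% were higher. After 2, 3 and 4 days the share of the core was thus below that of all genes. Medians of the core's log2 fold change were 0.40, 0.21, 0.02, 0.04, 0.05 and 0.17. By library size only, which moved the median of all genes down by the amounts given above, the signs after 1 to 5 days turned: medians were 0.22, −0.01, −0.21, −0.10, −0.08 and −0.06, with 4, 1, 0, 0, 1 and 2 subunits higher and 0, 0, 4, 3, 0 and 3 lower. Without room temperature replicate 5, 7, 2, 1, 0, 1 and 5 were higher.

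The difference between cap and core can be read within each library, where scaling has no part. The ratio of summed counts of the 17 subunits of the cap to the 14 of the core was 1.18 to 1.22 in controls, 1.25 to 1.45 after 6 hours and 1.22 to 1.37 after 1 day. It was 1.28 to 1.39, 1.29 to 1.52, 1.32 to 1.48 and 1.28 to 1.51 after 2, 3, 4 and 5 days. From 2 days on, as after 6 hours, every mouse was above every control. This ratio was computed as a description and was not tested.

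In the alpha ring, 3, 1, 1, 0, 0 and 2 of 7 subunits were higher from 6 hours to 5 days. On days 1 to 4 these shares (14.3, 14.3, 0 and 0%) were below those of all genes. Psma1 was at 66.5, 63.3, 64.4, 51.0 and 50.1 CPM in controls and at 90.5, 92.9, 100.0, 74.8 and 94.4 CPM after 6 hours, without overlap. Its log2 fold change was 0.59 ± 0.11 (edgeR adjusted p = 0.000341), and 0.43 ± 0.10 after 5 days (adjusted p = 0.00308), while the 3 durations from 2 to 4 days gave 0.02 to 0.10 and did not pass.

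Psma6 had another time course, and is named after its values were seen. It was higher by 0.50, 0.76 and 0.45 on the log2 scale after 6 hours, 1 day and 2 days, with the highest value after 1 day, and did not pass from 3 days on (0.16 to 0.20). Psma4 rose after 5 days only (0.36, edgeR adjusted p = 0.012) and Psma5 after 6 hours only (0.54, adjusted p = 0.03). Psma2, Psma3 and Psma7 passed at no duration. Psma4 and Psma5 overlap genes on the opposite strand, AY074887 and 1700010K24Rik.

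Of the 4 non-catalytic beta subunits, 3 were higher after 6 hours and at most 1 at any later duration. Psmb2 was at 28.4, 29.5, 30.3, 31.1 and 29.3 CPM in controls and at 37.8, 50.2, 44.0, 46.3 and 40.6 CPM after 6 hours (0.53 ± 0.10 on the log2 scale, edgeR adjusted p = 0.000537). The controls lay within a narrow range and below every cold-exposed mouse. At the later durations it was at −0.07 to 0.11 and did not pass.

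Psmb3 had its largest difference after 5 days. It was at 131, 93.8, 169, 107 and 98.3 CPM in controls and at 186, 163, 212, 177 and 184 CPM after 5 days, so that only 1 of the 5 cold-exposed mice was below the highest control. The log2 fold change was 0.60 ± 0.14 (edgeR adjusted p = 0.00203), with 0.41, 0.44 and 0.55 after 6 hours, 3 days and 4 days and values of 0.33 and 0.36 that did not pass after 1 and 2 days. The call after 6 hours was lost without any of 6 mice (0.34 to 0.57). That after 3 days was lost without room temperature replicate 2, 4 or 5 (0.37 to 0.59). Psmb4 rose after 6 hours (0.47) and 1 day (0.26), and Psmb1 passed at no duration.

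The catalytic subunits moved in opposite directions. Of the constitutive ones, Psmb5 and Psmb7 were higher after 6 hours, 1 day and 5 days, while all 3 subunits of the immunoproteasome were lower after 6 hours. Psmb5 (chr14:54614119-54618022, minus strand, GRCm38) was at 22.5, 18.5, 10.5, 11.1 and 12.4 CPM in controls and at 25.0, 20.9, 33.7, 23.6 and 27.1 CPM after 6 hours. Of these, the mouse at 20.9 CPM lay below the highest control. After 5 days Psmb5 was at 30, 35.1, 28.0, 33.7 and 40.4 CPM, above every control, and the group means were 15 ± 5.27 and 33.4 ± 4.81 CPM (SD, n = 5).

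Its log2 fold change was 0.77 ± 0.19 after 6 hours (edgeR adjusted p = 0.00396) and 1.13 ± 0.19 after 5 days (adjusted p = 0.000118). After 1 and 4 days it was 0.59 and 0.61 (adjusted p = 0.0468 and 0.0319). These calls were lost without any of 7 mice (0.43 to 0.78) and any of 5 mice (0.47 to 0.80). The values of 0.41 and 0.39 after 2 and 3 days did not pass. Exon sequence of Psmb5 also holds Mir686 on the same strand.

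Psmb7 was at 53.4, 52.2, 52.2, 52.5 and 48.1 CPM in controls and at 66.7, 63.9, 59.4, 78.4 and 78.0 CPM after 6 hours. The groups did not overlap, and the log2 fold change was 0.40 ± 0.10 (edgeR adjusted p = 0.00464). It was 0.35, 0.34 and 0.43 after 1, 2 and 5 days (adjusted p = 0.0115, 0.0227 and 0.00359). The call after 2 days was lost without room temperature replicate 5 or 2 days replicate 3 or 5 (0.31 to 0.40). Psmb7 overlaps Nek6 on the opposite strand.

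Psmb6 was at 77.6, 77.8, 76.8, 84.0 and 81.7 CPM in controls and at 92.3, 90.8, 95.2, 89.2 and 99.8 CPM after 6 hours. The groups did not overlap, yet the log2 fold change of 0.20 did not pass (edgeR adjusted p = 0.0656). At later durations it was between −0.13 and 0.09 and did not pass.

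Psmb8 (chr17:34197721-34201454, plus strand) was at 9.34, 10.5, 10.5, 8.48 and 20.3 CPM in controls, 20.3 CPM being replicate 5. It was at 2.87, 6.5, 3.35, 4.96 and 5.83 CPM after 6 hours and at 3.34, 3.69, 2.16, 8.42 and 4.83 CPM after 1 day. Every mouse at both durations was below every control. The log2 fold change was −1.34 ± 0.27 after 6 hours (edgeR adjusted p = 0.000741) and −1.46 ± 0.32 after 1 day (adjusted p = 0.00202). Psmb8 shares exon sequence with Gm20496 on the opposite strand, so its counts are uncertain for the reason given for Psmc3.

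From 2 days on the levels of Psmb8 overlapped with the controls. It was at 7.87, 10.8, 6.09, 4.1 and 6.85 CPM after 2 days, where the log2 fold change of −0.74 passed (edgeR adjusted p = 0.0499), but the call was lost without any of 7 mice (−0.92 to −0.45). After 3 days it was at 16.5, 9.92, 11.7, 18 and 3.59 CPM, and after 4 days at 13.6, 13.4, 11.9, 7.67 and 7.05 CPM. Mice of the same duration thus differed among themselves, and the log2 fold changes of 0.02 and −0.16 did not pass. After 5 days 4 mice were at 5.6 to 8.38 CPM and replicate 5 at 17.5 CPM (−0.44, adjusted p = 0.268).

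Psmb9 (chr17:34181987-34187764, minus strand) was at 16.4, 13.5, 14.4, 9.29 and 30 CPM in controls, again highest in replicate 5. It was at 5.74, 5.57, 6.03, 5.9 and 4.55 CPM after 6 hours, all below the controls (−1.62 ± 0.27, edgeR adjusted p = 0.000103). After 1 day 4 mice were at 2.23 to 4.49 CPM and replicate 5 was at 11 CPM, above the lowest control (−1.92 ± 0.40, adjusted p = 0.00119). After 2 days the log2 fold change was −0.74 (adjusted p = 0.0375), a call lost without any of 5 mice (−0.90 to −0.42). After 3, 4 and 5 days it was 0.13, −0.02 and −0.40 and did not pass. The first exons of Psmb9 and Tap1, which are read in opposite directions, overlap by 212 bases, but a 3′ library reads mainly the other end of each gene.

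Psmb10 had the smallest log2 fold change in size of the 3 immunoproteasome genes at 6 hours and at 1, 2 and 5 days, but not at 3 or 4 days. It was at 11.8, 10.3, 9.39, 13.9 and 21.9 CPM in controls and at 11.5, 9.06, 6.48, 5.67 and 9.29 CPM after 6 hours, with overlap. The log2 fold change of −0.72 passed (edgeR adjusted p = 0.0225), but the call was lost without room temperature replicate 5 or 6 hours replicate 3 or 4 (−0.83 to −0.46). The call after 4 days (−0.57, adjusted p = 0.0496) was lost without any of 8 mice (−0.67 to −0.32). The other durations gave −0.41 to −0.19.

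As a group, 3, 2, 2, 0, 1 and 0 of the 3 immunoproteasome genes were lower from 6 hours to 5 days, and 2, 2, 0, 0, 0 and 0 without room temperature replicate 5. Their median log2 fold changes were −1.34, −1.46, −0.74, 0.02, −0.16 and −0.40, and −1.04, −1.17, −0.42, 0.30, 0.13 and −0.06 without that control. The lower levels of Psmb8 and Psmb9 after 6 hours and 1 day therefore did not rest on that control. The call of Psmb10 after 6 hours and the calls after 2 and 4 days were lost without it. Each of them was also lost when certain other single mice were left out, so they did not rest on that control alone.

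**Figure D3:**
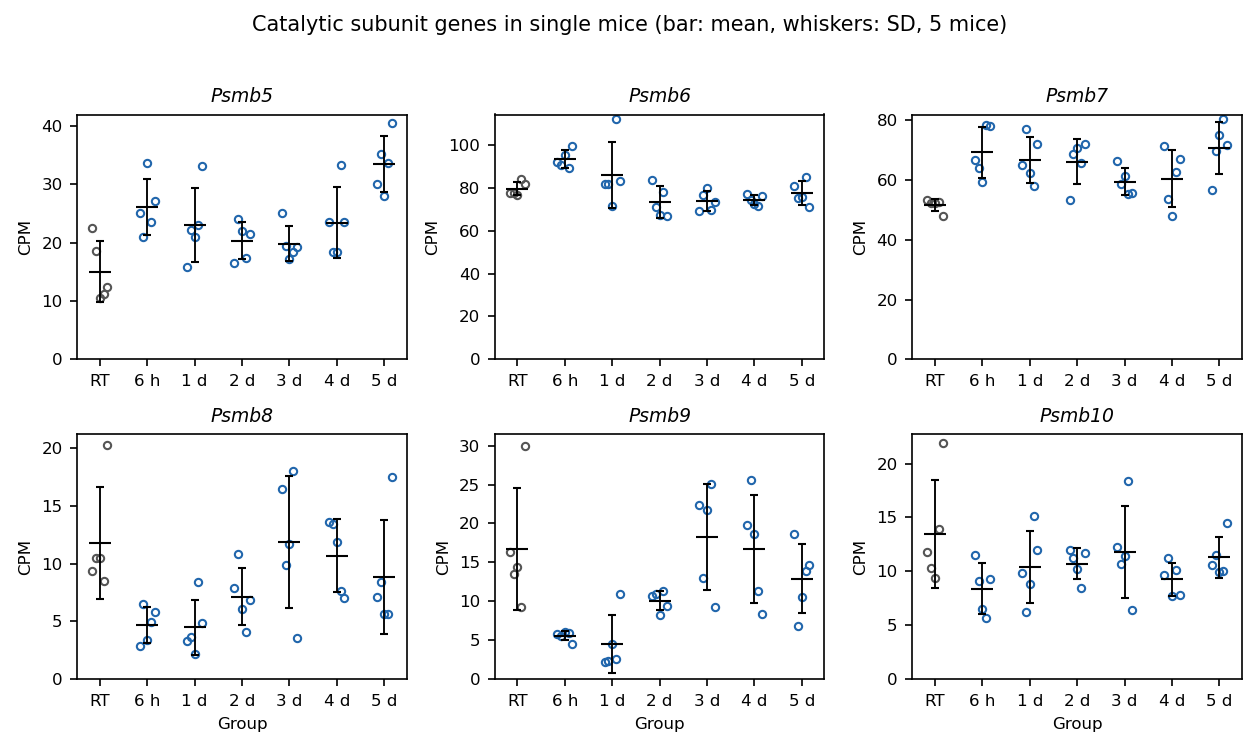
CPM (y axis) of the constitutive catalytic subunits Psmb5, Psmb6 and Psmb7 and of the immunoproteasome subunits Psmb8, Psmb9 and Psmb10 in each mouse (points) by group (x axis), with group means and SD (n = 5). Psmb8 and Psmb9 are lowest after 6 hours and 1 day, and Psmb5 is highest after 5 days.

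Each immunoproteasome subunit takes the place of a constitutive one, and the log2 ratio of their counts in a mouse (0.5 added to each count) is independent of scaling. For Psmb8 to Psmb5 the ratio was −1.26, −0.81, 0.0, −0.38 and 0.71 in controls, −3.07, −1.67, −3.29, −2.23 and −2.20 after 6 hours, and −2.21, −2.55, −3.22, −1.43 and −2.75 after 1 day. Every cold-exposed mouse was below every control at both durations. The differences of means were −2.14 and −2.08, each with an exact two-sided permutation p = 0.00794, the smallest that 5 against 5 mice can give, and an adjusted p = 0.0357 over 18 tests. After 5 days the ratio was −2.06, −2.05, −2.30, −2.55 and −1.20 (difference −1.68, exact permutation p = 0.0159, adjusted p = 0.0476). That call was lost without any of 8 mice (−1.91 to −1.42). After 2, 3 and 4 days the differences of −1.19, −0.55 and −0.79 did not pass.

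For Psmb9 to Psmb6 the ratio was −2.24, −2.51, −2.41, −3.16 and −1.44 in controls and −3.98, −4.00, −3.96, −3.89 and −4.43 after 6 hours, with no overlap. The differences were −1.70 after 6 hours (exact permutation test, adjusted p = 0.0357) and −2.14 after 1 day (adjusted p = 0.0476). At the later durations they were −0.49 to 0.25 and did not pass. For Psmb10 to Psmb7 the difference was −1.06 after 6 hours (adjusted p = 0.0357), and the values of −0.73 to −0.39 at later durations did not pass. Without room temperature replicate 5 the called ratios had adjusted p = 0.0714 in the exact permutation test and did not pass. Their differences were then −0.846 to −1.92, so the directions were the same.

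**Figure D4:**
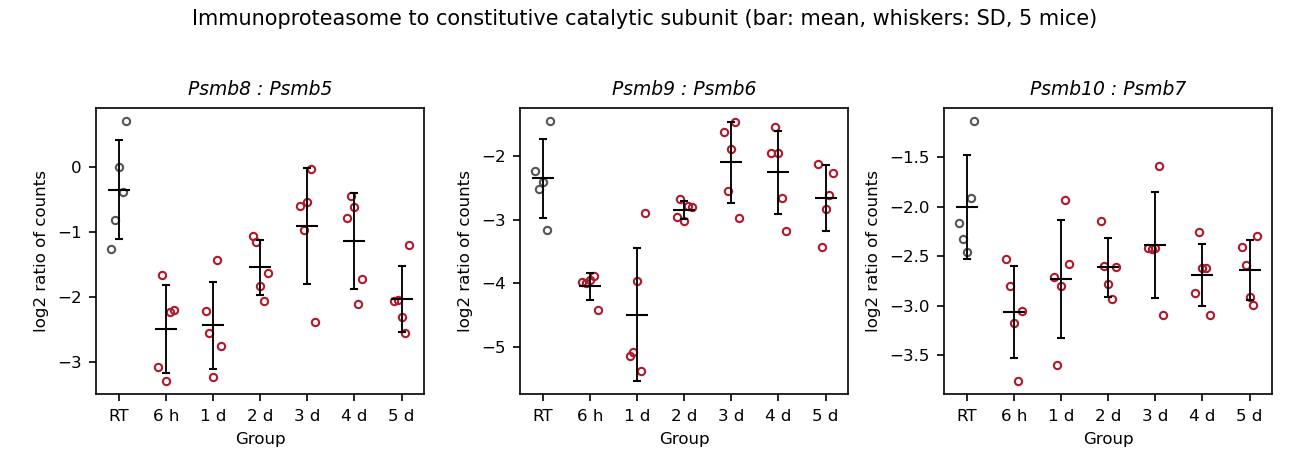
Log2 ratio of counts (y axis) of Psmb8 to Psmb5, Psmb9 to Psmb6 and Psmb10 to Psmb7 in each mouse (points) by group (x axis), with group means and SD (n = 5). Mice after 6 hours lie below all controls in the 3 pairs. After 5 days, 4 of 5 mice lie below all controls in the ratio of Psmb8 to Psmb5.

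Summed over the 6 catalytic genes, the immunoproteasome genes held 17.7 to 33.7% of the counts in controls (median 19.7%), 7.77 to 10.7% after 6 hours and 6.32 to 12.9% after 1 day. On days 2 to 5 the share was 12.9 to 16.8%, 11.5 to 30%, 12.2 to 25.5% and 12.7 to 20.3%. It is a share of 3′ counts and not of RNA molecules or protein. It was thus below every control at 6 hours, 1 day and 2 days, and from 3 days on it overlapped with controls.

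iBAT is a mixture of cells, and in bulk RNA fewer cells of a type cannot be told apart from less RNA of a gene per cell. The summed level of 10 immune cell markers was 90.2 to 177 CPM in controls, 90.2 to 99.4 CPM after 6 hours, and 77.3 to 102, 70.2 to 202, 110 to 292, 67.8 to 258 and 92.2 to 175 CPM on days 1 to 5. After 6 hours 5 of these markers were tested, of which 1 (Ptprc, −0.997, edgeR adjusted p = 0.0377) was lower and 0 higher. That call was lost without room temperature replicate 5 (−0.587, adjusted p = 0.169). After 1 day, 2 of 5 were lower, Cd74 (−0.43) and H2-Aa (−0.54), and 1 without that control, H2-Aa. On days 2 to 5, 1 of 5, 3 of 7, 2 of 6 and 2 of 6 markers were higher, among them the macrophage gene Cd68 each time (1.99, 2.91, 2.04 and 2.14), and 0, 0, 0 and 1 lower, the last being Cd74 (−0.9996). Without that control, 1, 5, 3 and 3 were higher and 0, 0, 0 and 1 lower. Cd79a, a B cell gene, had a mean of 0 CPM in controls and after 6 hours. Of 3 stromal markers, 0, 2, 1, 0, 1 and 1 were lower from 6 hours to 5 days and 0 higher. Of 2 endothelial markers, 1, 2, 2, 1, 1 and 0 were higher, of 4 erythroid markers 2, 4, 0, 1, 2 and 2 were higher, and of 4 skeletal muscle markers 0, 0, 0, 0, 0 and 2 were lower. Over all genes tested, 16.4 to 21.5% were higher and 14.7 to 21% lower at the 6 durations. The part of all these markers in the lower levels of the immunoproteasome genes was not tested.

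Genes induced by interferon and used in antigen presentation were lower at the same time. Of 9 tested genes of this list, 6 were lower after 6 hours and 7 after 1 day, and 0 were higher. Of all genes tested, 21% and 17.8% were lower at these durations. Tap1, the peptide transporter next to Psmb9, had a log2 fold change of −2.19 after 6 hours (edgeR adjusted p = 3.68e-06) and −1.46 after 1 day (adjusted p = 0.0055). Irf1, a transcription factor of these genes, had −0.90 and −0.75. Without room temperature replicate 5, 5 and 6 of the 9 were lower, with Tap1 at −2.02 and −1.30 (edgeR adjusted p = 1.18e-05 and 0.0185) and Irf1 at −0.80 and −0.65 (adjusted p = 6.47e-05 and 0.0481). After 2 days 1 of 9 was lower (Tapbp). After 3 days 3 of 10 were higher, among them Irf8 (1.39) and Tap2 (0.82), after 4 days 1 (Irf8, 1.26), and after 5 days 1 was lower (Irf1, −0.46). On days 2 to 5, 0, 4, 2 and 1 were higher and 1, 0, 0 and 0 lower without that control, so the call of Irf1 after 5 days was lost (−0.36, edgeR adjusted p = 0.135).

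The activators of the 11S type split in the same way as the catalytic subunits. Psme1 (chr14:55578123-55581529, plus strand) was at 70.7, 58.5, 72.3, 73.9 and 84.1 CPM in controls. It was at 47.2, 43.9, 57.2, 34.2 and 47.2 CPM after 6 hours and at 26.9, 29.1, 29.3, 29.9 and 31.5 CPM after 1 day. Both groups were below every control, and after 1 day the 5 mice lay within a narrow range below every mouse after 6 hours. The log2 fold change was −0.68 ± 0.13 after 6 hours (edgeR adjusted p = 0.000386) and −1.31 ± 0.11 after 1 day (adjusted p = 2.42e-07).

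Psme1 was also lower after 2, 4 and 5 days (−0.40, −0.46 and −0.32, edgeR adjusted p = 0.0198, 0.00936 and 0.0324). After 3 days the value of −0.24 did not pass. The call after 2 days was lost without room temperature replicate 5 or 2 days replicate 3 (−0.48 to −0.34), and that after 5 days without any of 5 mice (−0.39 to −0.25). Psme1 shares exon sequence with Emc9 on the opposite strand.

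Psme2 (chr14:55587441-55591113, minus strand), which forms a ring with Psme1, was at 34.1, 33.9, 20.5, 26.9 and 33.2 CPM in controls and at 17.7, 13.2, 15, 17.2 and 23.3 CPM after 6 hours. A single cold-exposed mouse, replicate 5, was above the lowest control. After 1 day Psme2 was at 16.1, 11.1, 16.0, 16.6 and 17.3 CPM, below every control. The log2 fold changes were −0.80 and −0.97 (edgeR adjusted p = 0.000909 and 0.000208), and those of later durations, −0.36 to −0.18, did not pass. Reads of Psme2 may be shared with its near copy Psme2b.

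Psme3 (chr11:101316213-101323537), the nuclear form, rose. It was at 27.5, 23.8, 29.9, 28.5 and 23.2 CPM in controls and at 47.5, 42.3, 41.8, 38.2 and 36.4 CPM after 6 hours, without overlap (0.60 ± 0.11, edgeR adjusted p = 0.000337). It was 0.48 to 0.56 higher on the log2 scale after 1, 3, 4 and 5 days, and 0.35 after 2 days, which did not pass (adjusted p = 0.0537).

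Psme4 (chr11:30771726-30880361), the PA200 activator, rose later. It was at 84.1, 79.5, 88.4, 80.5 and 85.2 CPM in controls and at 85.5, 102, 81.3, 79.3 and 89.4 CPM after 6 hours (0.04, edgeR adjusted p = 0.758), with overlap. After 5 days it was at 110.0, 111, 128, 121 and 127 CPM, above every control (0.49 ± 0.092, adjusted p = 0.000411). Psme4 was also called higher after 1 and 4 days (0.33 and 0.40). After 2 and 3 days every mouse was again above every control, yet the log2 fold changes of 0.25 and 0.19 did not pass.

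**Figure D5:**
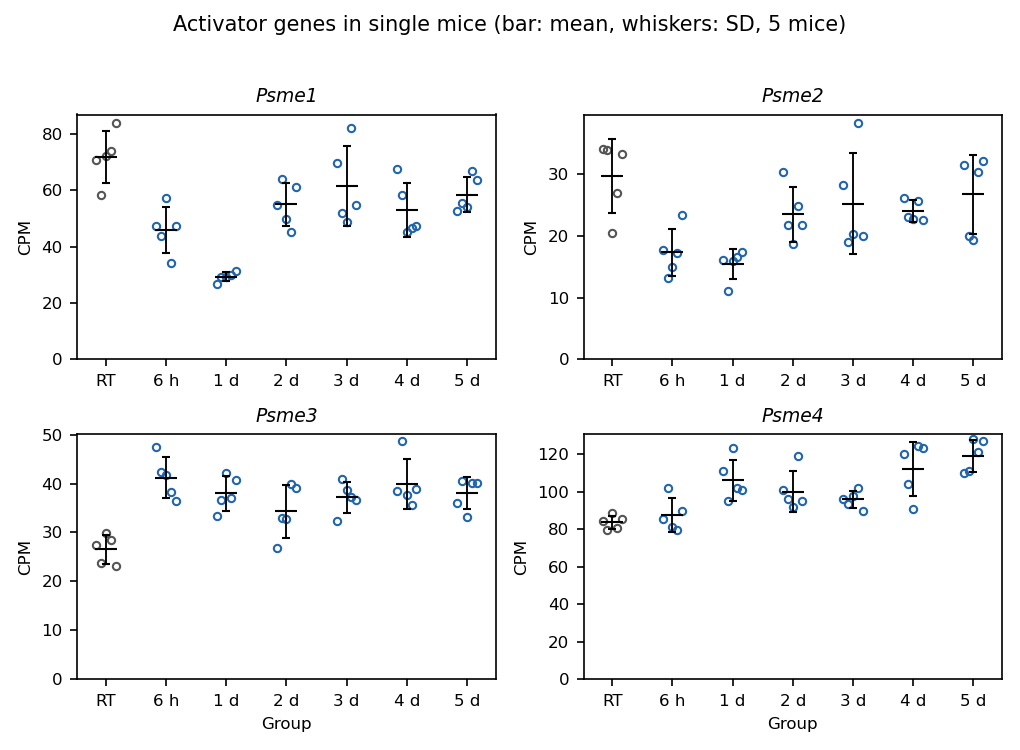
CPM (y axis) of the activators Psme1, Psme2, Psme3 and Psme4 in each mouse (points) by group (x axis), with group means and SD (n = 5). The 5 mice after 1 day lie between 26.9 and 31.5 CPM for Psme1, below all other groups, while Psme4 is above all controls after 5 days.

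The assembly chaperones that carry a Psmd name differed little. Psmd5 was at 12.6, 12.8, 12.2, 12.6 and 13.3 CPM in controls and at 15.1, 13.9, 12.9, 18.4 and 19.7 CPM after 5 days, with overlap. Psmd10 was at 12.0, 13.7, 14.6, 12.9 and 11.5 CPM in controls and at 13.3, 14.9, 11, 9.21 and 11.1 CPM after 6 hours, with overlap. Neither passed at any duration. Psmd9 was higher after 2 and 3 days (0.48 and 0.46, edgeR adjusted p = 0.042 and 0.038), and at 7.86 CPM its control replicate 3 lay below the other controls (12.6 to 14.5 CPM). Psmd9 overlaps Gm26745 on the opposite strand.

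Durations in the cold were also compared with each other. Between 6 hours and 1 day, 0 members were higher and 2 lower by edgeR, where 9.19% of the 10181 genes tested were higher and 7.75% lower. These were Psme1 (−0.65, adjusted p = 0.00212) and the lid subunit Psmd11 (−0.33, adjusted p = 0.034). The members' median was −0.12 and that of all genes −0.01. At an unadjusted p below 0.05, 2 members were higher (Psma6 and Psme4) and 6 lower, and DESeq2 called 0 and 3. Without 6 hours replicate 1, 3 or 5 or 1 day replicate 1, 1 member was lower, and without 1 day replicate 5, 4 were. Without 1 day replicate 1, 1 member was higher.

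Between 6 hours and 5 days, 5 members were higher and 9 lower, where 19% and 16.9% of 10294 genes were. The 5 included 2 of the 3 immunoproteasome genes, Psmb8 (0.90, edgeR adjusted p = 0.0302) and Psmb9 (1.23, adjusted p = 0.000382), while Psmb10 (0.43) did not pass. The others were Psme1 (0.36, adjusted p = 0.0333) and Psme2 (0.62, adjusted p = 0.00989) of the activator, and Psme4 (0.45, adjusted p = 0.00157). The calls of Psmb8 and Psme1 were lost without any of 4 and any of 5 mice. The 9 that fell were 5 subunits of the cap and 4 of the core, Psmc1 (−0.38), Psmc3 (−0.34), Psmc5 (−0.51), Psmd2 (−0.26), Psmd13 (−0.55), Psma6 (−0.30), Psmb2 (−0.48), Psmb4 (−0.54) and Psmb6 (−0.26). Those of Psmb6 and Psmd2 were lost without any of 7 and any of 5 mice. Without 6 hours replicate 1 the counts were 3 higher and 5 lower, and 3 were higher without 6 hours replicate 4 or without 5 days replicate 5. Psmc4, Psmd6 and Psmd12, which were higher than controls at both durations, were not among the calls.

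Genes that work with the proteasome were followed as lists. Over all genes tested, 21.5, 18.9, 16.4, 18.3, 19.4 and 20.2% were higher from 6 hours to 5 days. In the same order, 21, 17.8, 14.7, 15.5, 18.6 and 18.6% were lower. The core assembly chaperones, with 20% higher after 6 hours and after 1, 4 and 5 days, were near these shares at those durations. After 2 and 3 days 40% of them were higher. Of 5 core assembly chaperones, 1, 1, 2, 2, 1 and 1 were higher from 6 hours to 5 days, with Psmg3 higher from 6 hours to 4 days (0.42 to 0.68) and Pomp, which matures the beta ring, lower after 4 days (−0.41, edgeR adjusted p = 0.0378). Of 9 further 19S subunits and bound proteins, 4, 4, 3, 4, 3 and 5 were higher and 1, 3, 2, 2, 1 and 0 lower. The ubiquitin shuttle Ubqln1 was higher at all 6 durations (0.77 to 0.92). The ubiquitin receptor Adrm1 was higher after 6 hours (0.69), 1 day (0.58) and 5 days (0.60). In contrast, Uchl5, the deubiquitinase that Adrm1 binds, was lower after 6 hours and 1 day (−1.02 and −0.56, adjusted p = 0.000152 and 0.0124). Psmf1, an inhibitor of the core, was lower from 1 to 4 days (−0.50, −0.73, −0.54 and −0.64), and Usp14, another deubiquitinase, from 1 to 3 days.

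Among the genes that control proteasome transcription, 2 of 4 tested were higher at each duration up to 4 days and 3 after 5 days. Nfe2l1 itself was at 164, 158, 156, 156 and 157 CPM in controls and at 156, 160.0, 168, 151 and 165 CPM after 6 hours, with overlap (−0.01, edgeR adjusted p = 0.914). A higher level of Nfe2l1 was found after 5 days only (0.26 ± 0.091, adjusted p = 0.0322). Ddi2, the protease that releases its product, was higher at all durations (0.45 to 0.61), and Nfe2l2 after 6 hours and 1 day (0.41 and 0.30). Of 5 tested ubiquitin and E1 genes, 2, 2, 1, 1, 1 and 1 were higher and 0, 0, 0, 1, 1 and 1 lower. Of the 4 genes of the p97 system, which extracts ubiquitinated proteins for the proteasome, 3, 1, 1, 1, 1 and 1 were higher, and 0, 0, 0, 1, 1 and 0 lower, with Nploc4 higher at all durations (0.42 to 0.90).

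Whether members moved together in mice of the same duration was examined with 9 relations over 35 mice, on log2 CPM less the mean of the duration. Psmb8 went with Psmb10 (Pearson r = 0.663, permutation p = 0.00035, Spearman rho = 0.621, p = 0.0003, adjusted p = 0.00315 and 0.00135), and r was 0.571 without the 2 mice farthest from the median. It went with the leukocyte gene Ptprc (r = 0.505, permutation p = 0.00073, rho = 0.62, p = 0.0002, adjusted p = 0.00328 and 0.00135, r = 0.509 without 2 mice). In the 20 mice from 2 to 5 days alone these values were r = 0.840 and 0.547. In the 15 mice of the other groups they were 0.503 and 0.418 and did not pass with this smaller number of mice. The difference between these sets of mice was not tested.

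For Psmb8 with Psmb9 and with Psme1, r was 0.426 (permutation p = 0.031, adjusted 0.0592) and 0.401 (p = 0.0362, adjusted 0.0592), and rho was 0.439 (p = 0.0187) and 0.418 (p = 0.0219), each with an adjusted p of 0.0394, with r = 0.339 and 0.382 without 2 mice. With Cd74 it was 0.368 (permutation p = 0.0394, adjusted p = 0.0592, rho = 0.322, p = 0.0799, adjusted 0.12, r = 0.331 without 2 mice). Psmb8 with its constitutive counterpart Psmb5 gave r = 0.0674 (permutation p = 0.707) and rho = 0.0759 (p = 0.68). Psme1 with Psme2 gave r = 0.334 (permutation p = 0.0932, adjusted 0.12) and rho = 0.287 (p = 0.125, adjusted 0.161). Nfe2l1 with Psmd12, which has the antioxidant response element core in its promoter, gave r = −0.153 (permutation p = 0.416, adjusted 0.468) and rho = −0.222 (p = 0.253, adjusted 0.284). Without 2 mice, r of these 3 relations was 0.002, 0.235 and −0.365 in that order.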

How the data were processed

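According to the labels and the study's methods, iBAT RNA was turned into 3′ end libraries (QuantSeq FWD) and sequenced on a NovaSeq. STAR 2.6.1d aligned the reads of 76 bases, and HTSeq 0.11.2 counted reads per gene on GRCm38. The strand setting is not given in the sources used here. The authors deposited whole-number counts per gene, without normalization. Libraries held 3846016 to 6047247 counts. Ensembl identifiers were matched to GENCODE vM21 symbols (55240 of 55421 matched).

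Each duration was compared with the 5 controls, and 1 and 5 days with 6 hours, in separate fits with edgeR 4.0.16 in R 4.3.3 (TMM, filterByExpr, quasi-likelihood test, Benjamini-Hochberg adjustment over all genes tested). Permutation tests used scipy 1.17.1 and numpy 2.4.6 in Python 3.11.15: all 252 regroupings for ratios, 100000 permutations within durations for correlations of log2 CPM (prior count 2). The members, roles, lists and tests were chosen with earlier results of these data known. Values for every mouse are given for the catalytic subunits, the Psme genes and, in each other role, the member with the largest fold change after 6 hours and after 5 days. Members that failed the filter are given by their counts, and others are named for a call or for its absence. The statistics were tested on simulated data.

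Alternatives were DESeq2 1.42.0, RLE factors, library size only, other count filters (none, or a mean of at least 10), all groups in 1 fit, a replicate block, counts without mitochondrial genes and the most counted nuclear gene, and leaving out each mouse. The interferon and immune lists without room temperature replicate 5 were added after seeing the data. Overlaps of exons come from GENCODE and promoter sequences from RefSeq. A few genes and a motif of the lists, and 1 of the 9 relations, are not reported here. The study's single-cell and imaging data were not analysed here.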

Additional observations from a re-analysis of the deposited data

Results flagged for a closer look

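In 9 of 133 sets of 5 mice (19 named members in 7 groups), 1 mouse lay far from the other 4 by Dixon's test, where chance gives about 1 in 20. Room temperature replicate 5 was at 20.3 CPM of Psmb8 (the other controls at 8.48 to 10.5) and at 48.1 CPM of Psmb7 (52.2 to 53.4). Replicate 5 after 5 days was at 17.5 CPM of Psmb8 (5.6 to 8.38), and replicate 5 after 1 day at 11 CPM of Psmb9 (2.23 to 4.49). Replicate 2 after 1 day was at 11.1 CPM of Psme2 (16.0 to 17.3), replicate 2 after 4 days at 48.8 CPM of Psme3 (35.7 to 38.9) and replicate 5 after 4 days at 79.5 CPM of Psma1 (57.7 to 62.6). Replicate 3 after 6 hours was at 44.2 CPM of Psmc4 (63.9 to 66.5), and replicate 1 after 2 days at 179.0 CPM of Psmd4 (226 to 237).

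Effects of cold differed between durations when tested directly by edgeR. Psme1 was lower after 1 day than after 6 hours (−0.65 on the log2 scale, adjusted p = 0.00212). After 5 days against 6 hours, Psmb8 (0.90, adjusted p = 0.0302), Psmb9 (1.23, adjusted p = 0.000382), Psme1 (0.36, adjusted p = 0.0333), Psme2 (0.62, adjusted p = 0.00989) and Psme4 (0.45, adjusted p = 0.00157) were higher. Psmb6 (−0.26, adjusted p = 0.0381), Psmb2 (−0.48, adjusted p = 0.00342) and Psmd2 (−0.26, adjusted p = 0.03) were lower.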

How the results depend on the processing

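Of 71 calls of named members, DESeq2 kept 71, RLE factors 69, library size only 50, no count filter 65, a mean of at least 10 counts 71, the fit of all groups 65, the replicate block 64, counts without mitochondrial genes 70, and 54 held without each mouse in turn; 0 changed direction. The numbers of members called moved by over 1.5 times as follows, and the cause was not tested. Library size only gave 15, 8, 2, 6 and 8 higher members after 6 hours, 1, 2, 3 and 5 days, and 10, 4, 4 and 4 lower after 2, 3, 4 and 5 days. The fit of all groups gave 1, 1 and 0 lower after 2, 4 and 5 days, and 1 higher and 4 lower between 6 hours and 1 day. RLE factors and counts without mitochondrial genes gave 1 lower after 4 days, and no filter gave 0 lower after 5 days. With the replicate block, 1 was lower after 4 days, 2 after 5 days and 1 between 6 hours and 1 day. Replicate numbers do not pair mice: correlations of the 105 same-number pairs were −0.246 to 0.257, and 6 of 35 mice correlated best with their own number.

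Leaving out 1 mouse gave 20 to 24, 15 to 18, 6 to 14, 8 to 12, 10 to 14 and 15 to 18 higher and 4 to 5, 4, 0 to 3, 0 to 1, 1 to 3 and 0 to 2 lower members from 6 hours to 5 days. It gave 0 to 1 higher and 1 to 4 lower between 6 hours and 1 day, and 3 to 7 and 5 to 9 between 6 hours and 5 days. The differences of the Psmb8 to Psmb5 ratio were −2.37 to −1.88, −2.33 to −1.82, −1.42 to −0.93 and −1.91 to −1.42 at 6 hours and 1, 2 and 5 days. Those of Psmb9 to Psmb6 were −1.90 to −1.47, −2.54 to −1.92 and −0.70 to −0.27 at 6 hours and 1 and 2 days, and −0.11 to 0.33 at 4 days, where the sign turned. Those of Psmb10 to Psmb7 were −1.20 to −0.85, −0.92 to −0.51, −0.73 to −0.40 and −0.81 to −0.48 at 6 hours and 1, 2 and 4 days. The calls of these ratios after 6 hours and 1 day were lost without room temperature replicate 2, 3 or 5 (after 1 day for Psmb9 to Psmb6 also without replicate 1), and that of Psmb8 to Psmb5 after 5 days without any of 8 mice. Among the 15 mice of the first 3 groups (controls, 6 hours and 1 day), r turned to −0.0297 for Psmb8 with Psmb5 and to −0.0608 for Psme1 with Psme2. Scaled by library size only, r of Nfe2l1 with Psmd12 turned to 0.0879. Depth limits the immunoproteasome genes, with as few as 10 counts of Psmb9 in a mouse.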
